A study of Homo sapiens with 36 samples.

Results

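The 37 genes of the human mitochondrial genome were followed in RNA-seq of HCT-116 cells, a colorectal carcinoma line, as all genes whose symbol starts with MT-, out of 62757 gene identifiers in the count files. They comprised 13 mRNAs for subunits of the respiratory chain and the ATP synthase, 2 rRNAs (MT-RNR1, the 12S RNA, and MT-RNR2, the 16S RNA) and 22 tRNAs, 28 of them on the plus strand of chrM and 9 on the minus strand. FBXW7-/- cells (KO) lack the substrate receptor of an SCF ubiquitin ligase and were compared with wild-type (WT) cells, both obtained from 1 supplier as lines. KO cells received a control esiRNA (esiCT), an esiRNA pool against HDAC4 (esiHDAC4), or PROTAC #11, a class IIa HDAC degrader, together with esiCT, all for 48 h. Each arm was left untreated or given 50 µM oxaliplatin (OXPT) for the last 24 h. WT cells were also untreated or OXPT-treated, but their titles and their treatment labels name different esiRNAs, so that the esiRNA of WT is not settled. For PROTAC #11 the labels give 1 µM in one field and 10 µM in another. Each of the 8 groups held 3 libraries, 24 in all. The labels do not say whether these came from separate cultures, so the p-values measure the spread between libraries, which may be technical.

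Mitochondrial DNA is read by its own RNA polymerase, POLRMT, with TFAM and TFB2M, into long RNAs that cover nearly a whole strand. The tRNAs lie between the other genes, and their excision releases the rRNAs and mRNAs, most of which then receive short poly(A) tails in the organelle. Steady levels therefore depend on later steps as much as on transcription, among them the stabilising LRPPRC-SLIRP complex. Oxaliplatin is a platinum compound that crosslinks DNA.

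The genome leaves little room between genes (chrM, hg38, 16569 bases), and this sets what the counts can tell apart. The sequences below are from the plus strand, 5′ to 3′, except that of MT-TP, and the positions given with them are those of the whole stretch shown. MT-ATP8 and MT-ATP6 share 46 bases, in capitals, within chrM:8507-8592.
MT-ATP8 and MT-ATP6: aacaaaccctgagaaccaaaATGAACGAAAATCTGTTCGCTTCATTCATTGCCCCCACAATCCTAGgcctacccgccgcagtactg
MT-ND4L and MT-ND4 share 7 bases, in capitals, within chrM:10740-10786, and both pairs are known to be carried on joint mRNAs.
MT-ND4L and MT-ND4: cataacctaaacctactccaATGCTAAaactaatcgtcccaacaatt
The minus-strand tRNA gene MT-TS1, in capitals, begins at the next base after MT-CO1, at chrM:7426-7514. It is shown because its counts depended on the count column more than those of any other tRNA.
MT-CO1 and MT-TS1: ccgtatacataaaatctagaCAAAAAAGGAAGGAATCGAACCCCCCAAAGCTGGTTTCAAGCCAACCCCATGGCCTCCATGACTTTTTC
MT-ND5 and the minus-strand gene MT-ND6, in capitals, abut at chrM:14129-14168.
MT-ND5 and MT-ND6: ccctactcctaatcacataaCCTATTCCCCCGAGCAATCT
MT-ND3, the member that passed the test below, ends at chrM:10375-10404. Its 346 bases make 115 codons and 1 base, in capitals, and the stop codon is finished by the poly(A) tail, as in 6 of the 13 coding genes here.
MT-ND3: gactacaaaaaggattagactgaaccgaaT
MT-TP, the tRNA with the most unstranded counts, lies at chrM:15956-16023 and is shown on its own strand, the minus strand.
MT-TP: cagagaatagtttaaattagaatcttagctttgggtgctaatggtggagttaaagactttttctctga

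The unstranded gene counts of the 24 libraries summed to 10725966 to 20527222. FBXW7 was measured at 13.4 to 42.0 CPM in WT and 13.8 to 54.6 CPM in KO libraries, and a gene count does not show whether an edit disrupted the gene. HDAC4 had a median of 8.87 CPM in untreated esiHDAC4 libraries and 18.3 CPM in untreated esiCT libraries. With OXPT the medians were 4.10 CPM in esiHDAC4 and 6.23 CPM in esiCT libraries. Epithelial markers were present, with KRT8 at 2157 to 9293 CPM. Of 8 markers of leukocytes, fibroblasts and endothelium, 7 reached at most 2.32 CPM, and COL1A1 reached 76.3 CPM. Libraries numbered 3 stood apart in several groups. The one of OXPT-treated KO esiCT cells had 22.3% unmapped reads against 9.46% and 9.74% in its group, and untreated WT library 3 had 13.8% against 8.21% and 7.74%. Values without a library are given beside the results whose call it changes or that it carries.

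Mitochondrial transcripts took 5.65 to 14.3% of the gene counts of a library, with a median of 9.74%. The 2 rRNAs and 13 mRNAs held 99.9% of these counts, and 33 of the 37 genes had at least 1 unstranded count. Depth was thus no limit for 15 of the members, whereas most tRNAs were close to 0. Per length, MT-CO2, a core subunit of cytochrome c oxidase, was highest among the mRNAs of untreated WT cells, at 13635 ± 2888 RPKM (reads per kilobase and 1000000 gene counts; SD, n = 3). In untreated KO esiCT cells it was also highest, at 11402 ± 1158 RPKM. MT-ND4L, a small membrane subunit of complex I, was lowest, at 1428 ± 1019.8 and 1114 ± 182 RPKM. The levels of the 13 mRNAs thus differed although all but MT-ND6 come from one strand's RNA. In KO esiCT cells the order ran MT-CO2, MT-ATP6, MT-CO3, MT-CO1, MT-ND4 and MT-ND3, and each of these steps exceeded the larger SD of the neighbouring genes. From MT-ND3 to MT-ND6 the neighbours MT-ND2, MT-CYB and MT-ND1 did not differ beyond their spread. In WT cells only the step from MT-CYB, the cytochrome b of complex III, to MT-ND5 did. MT-ATP8 and MT-ND4L are short and share bases with the next gene, and reads over both genes of a pair were not counted for either. Their levels therefore understate the RNA that carries them. The choice of count column matters for other genes as well. Per 100 unstranded counts, the forward and reverse columns described below together held 146 for MT-ND6, 120 for MT-ND5, 106 for MT-CO1 and 103 for MT-CYB. For the other mRNAs they held at most 101. The order and the steps above thus hold for the unstranded counts only.

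**Figure D1:**
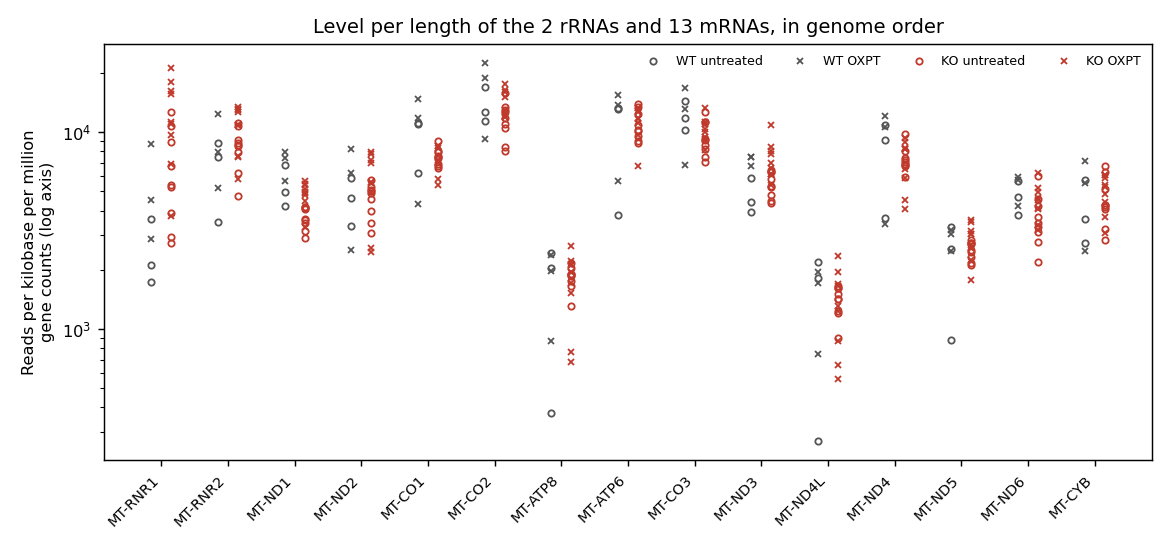
Reads per kilobase per 1000000 gene counts (log axis) of the 2 rRNAs and 13 mRNAs in genome order, 1 point per library, WT in grey and KO in red, untreated as circles and OXPT-treated as crosses. MT-CO2 lay between 8013 and 22499, MT-ND4L between 269 and 2337, and MT-RNR1 spread from 1740.1 to 21281.

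The mitochondrial share of gene counts was 9.02, 8.58 and 7.39% in the 3 untreated KO esiCT libraries and 11.9, 11.6 and 8.26% after OXPT. With esiHDAC4 it was 8.07, 7.16 and 7.72% untreated and 11.2, 9.92 and 6.37% with OXPT. With PROTAC #11 it was 10.3, 9.51 and 10.2% and 9.97, 10.7 and 11.9%. The groups overlapped in all of these arms. In WT the share was 11.0, 9.56 and 5.65% untreated and 14.3, 11.4 and 5.84% after OXPT. Libraries numbered 3 held the lowest share in 5 of the 8 groups, and in WT they were far below the others in both states. Set against the untreated library of the same number, the share with OXPT was 1.32, 1.36 and 1.12 times as high in KO esiCT and 1.29, 1.20 and 1.03 times in WT. The ratios were 1.39, 1.39 and 0.825 with esiHDAC4 and 0.964, 1.12 and 1.17 with PROTAC #11. The share is a sum over the members and was not tested. In bulk RNA, more mitochondrial RNA per cell, less RNA from the nucleus and a change in the mixture of cells cannot be told apart.

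**Figure D2:**
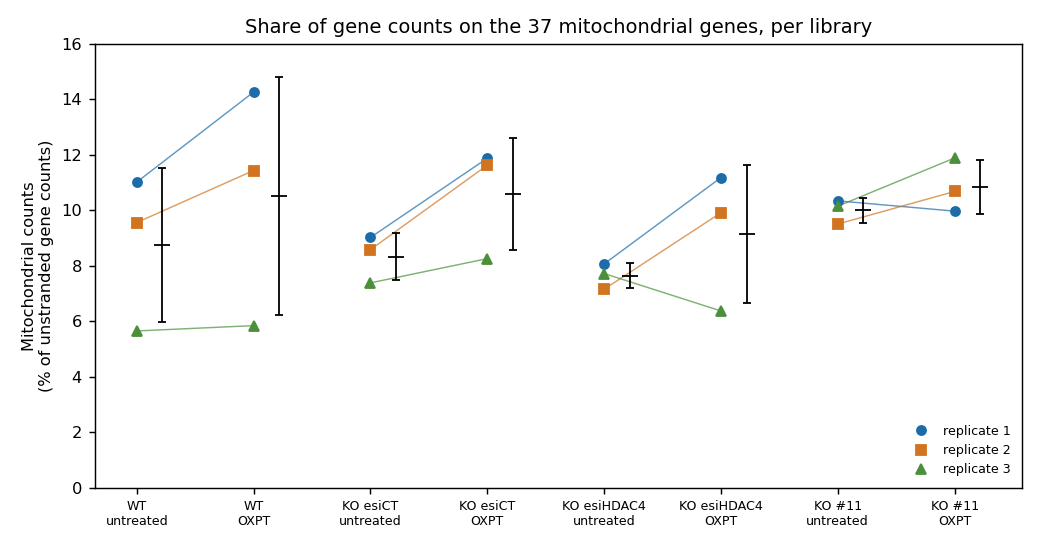
Mitochondrial counts as percent of unstranded gene counts in each of the 24 libraries, by group. Points are libraries, lines join libraries of the same replicate number, and bars give the mean ± SD of 3. The highest library is replicate 1 of OXPT-treated WT at 14.3% and the lowest is replicate 3 of untreated WT at 5.65%.

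MT-RNR1 (chrM:648-1601), the RNA of the small mitoribosomal subunit, had the largest fold of the 15 major members under OXPT in all 4 arms. In KO esiCT cells it was at 8075, 6227 and 2568 counts per 1000000 (CPM, scaled by edgeR's TMM factors, as are all CPM values below) in untreated libraries and 19356, 17246 and 8349 CPM after OXPT. Every OXPT library lay above every untreated one, and within each state library 3 was the lowest. The fold was 2.66 (log2 fold change 1.41, SE 0.48, adjusted p = 0.0607 by edgeR), which did not pass the threshold of 0.05. Without OXPT library 3 it did (log2 fold change 1.69, adjusted p = 0.0390), and with the replicate number as a block as well (log2 fold change 1.46, adjusted p = 0.00325). With esiHDAC4 the libraries held 4549, 3489.8 and 2589.5 CPM untreated and 9642, 9224 and 3940.0 CPM with OXPT. The groups overlapped, since OXPT library 3 lay below untreated library 1 (log2 fold change 1.10, SE 0.48, adjusted p = 0.146; 0.0246 with the block). In WT the values were 3502, 1911 and 1951 CPM and 8677, 4419 and 3001 CPM, again with an overlap and with each OXPT library above its untreated partner (log2 fold change 1.13, SE 0.48, adjusted p = 0.141, adjusted p = 0.0270 with the block). With PROTAC #11 the untreated libraries already held 11511, 9815 and 4762 CPM, against 10696, 15503 and 15267 CPM with OXPT. Here library 1 was lower with OXPT than without (log2 fold change 0.67, SE 0.47, adjusted p = 0.428, adjusted p = 0.0676 with the block).

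MT-RNR2 (chrM:1671-3229), the RNA of the large mitoribosomal subunit, had smaller folds than MT-RNR1 in all 4 arms. In KO esiCT cells it was at 15842, 16784 and 7204 CPM untreated and 19284, 20574 and 15006 CPM with OXPT, with overlapping groups (log2 fold change 0.46, SE 0.35, adjusted p = 0.442). Over the 4 arms its log2 fold changes were 0.46, 0.42, 0.39 and 0.42 for KO esiCT, KO esiHDAC4, KO #11 and WT, with adjusted p from 0.442 to 0.552. The count of MT-RNR1 per count of MT-RNR2 was 0.510, 0.371 and 0.356 in untreated KO esiCT libraries and 1.00, 0.838 and 0.556 after OXPT. The pair is transcribed together and this ratio does not depend on depth or on the scaling of libraries. In WT it was 0.296, 0.147 and 0.304 and 0.433, 0.347 and 0.335. With esiHDAC4 it was 0.372, 0.281 and 0.289 and 0.529, 0.546 and 0.399, and with PROTAC #11 0.843, 0.745 and 0.418 and 0.918, 0.880 and 0.736. In each arm the OXPT library exceeded the untreated library of the same number in all 3 pairs, and the OXPT groups of KO esiCT, KO esiHDAC4 and WT lay wholly above their untreated groups. The ratio is described and was not tested. These libraries were made from poly(A) RNA, so the rRNA counts also depend on how many of these molecules carried a tail or an A-rich stretch. The share of counts on a list of 19 RNAs that mostly lack a poly(A) tail, such as RN7SK and histone mRNAs, was 0.123, 0.104 and 0.285% in untreated and 0.111, 0.0832 and 0.144% in OXPT-treated KO esiCT libraries, and its part in the rRNA counts was not tested.

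**Figure D3:**
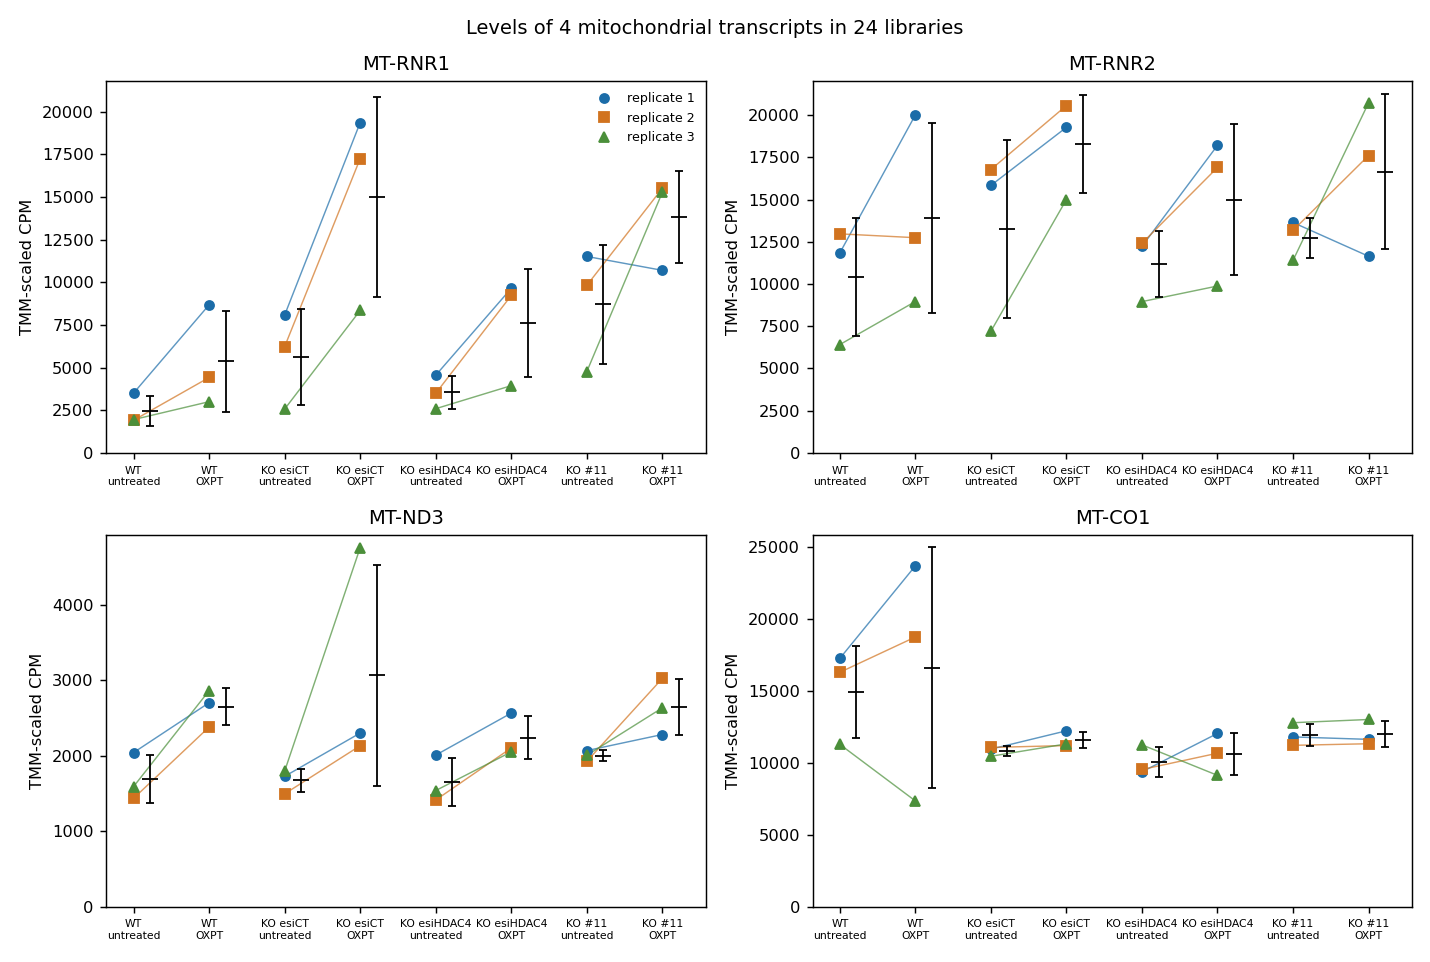
TMM-scaled CPM of MT-RNR1, MT-RNR2, MT-ND3 and MT-CO1 in the 24 libraries, 1 panel per gene. Points are libraries, lines join the same replicate number without and with OXPT, and bars give the mean ± SD of 3. MT-RNR1 of KO esiCT cells goes from 5623 ± 2803 to 14984 ± 5842 CPM, and MT-CO1 from 10817 ± 326 to 11572 ± 561 CPM.

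Of the 16 members with enough counts to be tested (the 2 rRNAs, the 13 mRNAs and MT-TP), MT-ND3 was the one called by edgeR in the OXPT response of KO esiCT cells, at an adjusted p under 0.05 and a fold over 1.5. Over all 12356 genes tested, 11.3% were called in that comparison. In the OXPT responses of KO esiHDAC4, KO #11 and WT cells 0 of 16 members were called, against 12%, 9.51% and 10.7% of all genes. A single call among 16 members is no more than these background shares give. At an unadjusted p under 0.05 the counts were 4, 1, 1 and 2 of 16 in KO esiCT, KO esiHDAC4, KO #11 and WT, against 26.1%, 25.4%, 23.5% and 24.7% of all genes. With the replicate block the calls were 3 (MT-RNR1, MT-ND3 and MT-TP), 1 (MT-RNR1), 1 (MT-ND1) and 1 (MT-RNR1), against 15.7%, 16.7%, 13.9% and 15.3%. Without number 3 in every group the calls were 2 (MT-RNR1 and MT-ND4L), 2 (MT-RNR1 and MT-CO2), 0 and 1 (MT-RNR1), against 17.4%, 18%, 22.8% and 20.9%. MT-ND3 was not among them. DESeq2 called 3 members in KO esiCT (MT-RNR1, MT-ND3 and MT-TP) and, in the other arms, 0, 0 and 0, against 15%, 15.2%, 12.6% and 13.9% of all genes.

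Most fitted differences of the 15 major members were above 0 under OXPT. In KO esiCT, KO esiHDAC4 and WT cells 15 of 15 were above 0, and in KO #11 cells 12 of 15. With 1 library of the arm left out, the number above 0 ran from 14 to 15 in KO esiCT, 12 to 15 in KO esiHDAC4, 8 to 12 in KO #11 and 9 to 15 in WT. The lowest number in WT was without untreated library 3, where MT-ATP8 and MT-ND4L were at -0.26 and -0.35 log2 units. Of all genes tested 50.8%, 51.4%, 49.7% and 45.4% were above 0 in KO esiCT, KO esiHDAC4, KO #11 and WT. The median log2 fold change of the 15 was 0.40 in KO esiCT, 0.33 in KO esiHDAC4, 0.32 in WT and 0.18 in KO #11. The medians over all genes were 0.0099, 0.018, -0.059 and -0.0024. The 15 members are read from the same few precursor RNAs, so these signs are not independent of each other. The OXPT and untreated libraries did not overlap, with OXPT higher, for 7, 3, 5 and 2 of the 16 members in KO esiCT, KO esiHDAC4, KO #11 and WT. For all genes these shares were 15.3%, 18.8%, 22.4% and 11.5%. In KO #11 1 member was lower with no overlap, against 20.1% of all genes.

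**Figure D4:**
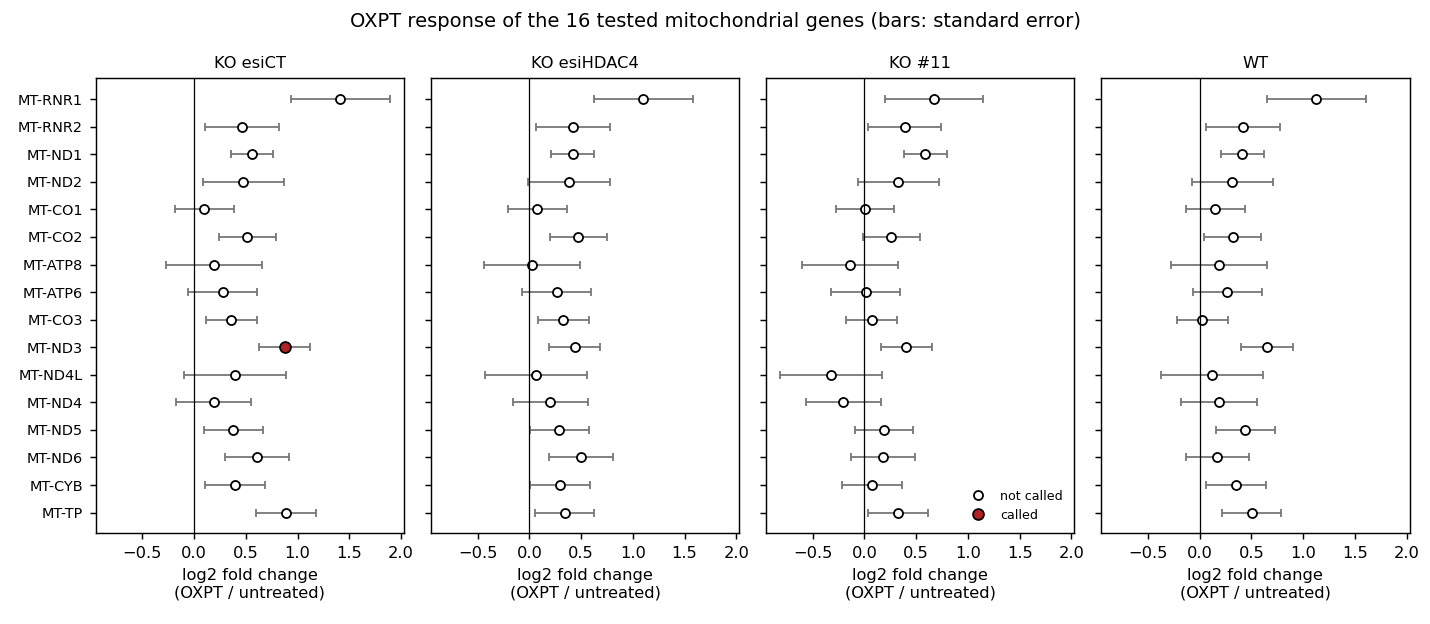
Log2 fold change of OXPT over untreated for the 16 tested mitochondrial genes in the 4 arms. Points are edgeR estimates from 3 libraries against 3, bars are standard errors, and the filled point is called. MT-RNR1 is rightmost in each panel among the 15 rRNAs and mRNAs, and MT-ND4L in KO #11 is lowest at -0.32.

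Complex I, the entry point of electrons from NADH, has 7 subunits encoded on chrM. MT-ND3 (chrM:10059-10404), a membrane subunit near the junction with the peripheral arm, was at 1728, 1496 and 1798 CPM in untreated KO esiCT libraries and at 2303, 2135 and 4763 CPM after OXPT. All OXPT libraries were higher than all untreated ones, and library 3 stood far above the other OXPT libraries. The fold was 1.83 (log2 fold change 0.87, SE 0.25, adjusted p = 0.0266). Without OXPT library 3, the library with 22.3% unmapped reads, the log2 fold change was 0.40 with adjusted p = 0.258. The call was also lost without each of the 3 untreated libraries in turn (adjusted p = 0.0782, 0.108 and 0.0557). In WT, MT-ND3 was at 2043, 1436 and 1593 CPM untreated and 2705, 2383 and 2866 CPM with OXPT. These groups did not overlap, and here library 3 was close to its partners (log2 fold change 0.65, SE 0.25, adjusted p = 0.101). In the fit without OXPT library 3 of KO esiCT, which also sets the common spread, MT-ND3 was called in WT (adjusted p = 0.0182). In KO esiHDAC4 it was at 2009.8, 1414 and 1539.6 and 2567, 2105 and 2053 CPM (log2 fold change 0.44, SE 0.25, adjusted p = 0.283), and in KO #11 at 2069, 1927 and 2007 and 2283, 3028 and 2637 CPM (log2 fold change 0.40, SE 0.25, adjusted p = 0.350). MT-ND3 was thus higher with OXPT in 12 of 12 pairs of libraries with the same number, 3 in each arm. No share of all genes is available for this count or for the pair counts below, so they are descriptive.

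MT-ND1 (chrM:3307-4262), which helps to form the quinone site of complex I, was the other mRNA that was higher with OXPT in 12 of 12 pairs. With PROTAC #11 it was at 3808, 3342 and 3056 CPM untreated and 5375, 5422 and 4541 CPM with OXPT, with no overlap (log2 fold change 0.59, SE 0.20, adjusted p = 0.0764, adjusted p = 0.0218 with the block). In KO esiCT cells the values were 3726, 3762 and 2946 and 4695, 5234 and 5411 CPM, also with no overlap (log2 fold change 0.56, SE 0.20, adjusted p = 0.0842). Its log2 fold change in the 4 arms lay between 0.41 and 0.59. MT-ND6 (chrM:14149-14673), the mRNA of the minus strand, was at 1727, 1416 and 2338 CPM untreated and 2073, 2163 and 4116 CPM with OXPT in KO esiCT, so that the groups overlapped and library 3 was the highest in both (log2 fold change 0.61, SE 0.31, adjusted p = 0.219). Without OXPT library 3 its log2 fold change was 0.21 (adjusted p = 0.785). The unstranded counts of this gene cannot be told apart from RNA of the opposite strand. MT-ND2 and MT-ND5, membrane subunits of the proton-pumping arm, had log2 fold changes of 0.48, 0.38, 0.33 and 0.32 and of 0.38, 0.29, 0.19 and 0.44 in KO esiCT, KO esiHDAC4, KO #11 and WT (adjusted p 0.482 to 0.676 and 0.368 to 0.741). MT-ND4 and MT-ND4L, carried on one mRNA, had 0.19, 0.20, -0.21 and 0.19 and 0.40, 0.066, -0.32 and 0.12 in the same order (adjusted p 0.776 to 0.800 and 0.660 to 0.951). These were the mRNAs that were higher with OXPT in the fewest pairs, 6 and 5 of 12, together with MT-ATP8 at 6 of 12.

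MT-CYB (chrM:14747-15887), the cytochrome b of complex III, was at 4380.5, 3551 and 4768 CPM untreated and 5724, 5625 and 5348 CPM with OXPT in KO esiCT. The groups did not overlap, and the difference did not pass the test (log2 fold change 0.39, SE 0.29, adjusted p = 0.417). Of the 3 core subunits of complex IV, cytochrome c oxidase, MT-CO2 (chrM:7586-8269) was higher with OXPT in 11 of 12 pairs. In KO esiCT it was at 7174, 6941 and 8492 CPM and 8156, 8934 and 15199 CPM, with overlap and with OXPT library 3 far above the rest (log2 fold change 0.51, SE 0.28, adjusted p = 0.249). Without that library its log2 fold change was 0.18 (adjusted p = 0.796). MT-CO1 (chrM:5904-7445), the catalytic subunit, had log2 fold changes of 0.10, 0.078, 0.0067 and 0.15 (SE 0.28 in KO esiCT, adjusted p 0.791 to 0.994). In KO esiCT it was at 10942, 11062 and 10447 CPM and 12217, 11191 and 11309 CPM. Its fold of 1.07 had an approximate 95% interval, taken from its SE, from 0.722 to 1.58. MT-CO3 had 0.36, 0.33, 0.072 and 0.025 (adjusted p 0.386 to 0.968). The ATP synthase subunits MT-ATP6 and MT-ATP8, both of the membrane part and on one mRNA, had 0.28, 0.27, 0.013 and 0.27 and 0.19, 0.024, -0.14 and 0.18 (adjusted p 0.647 to 0.990 and 0.836 to 0.982). In untreated WT library 3, MT-ATP8 stood at 91.4 CPM and MT-ND4L at 93.8 CPM. Its partners held 429 and 474 CPM of MT-ATP8, and 549 and 613 CPM of MT-ND4L. Longer genes were low in that library too. MT-ATP6 was at 3042 CPM against 9083 and 8549 CPM in its partners, and MT-ND4 at 5942 against 15180 and 11909 CPM. MT-ND5 was at 1875 against 6052 and 4344 CPM. The short MT-ND3 was at 1593 CPM, between its partners at 1436 and 2043 CPM. MT-CO2, MT-CO3, MT-ND1, MT-ND6 and MT-RNR1 also lay between their partners. The cause of the low values was not tested.

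The difference between OXPT responses was tested directly as an interaction. Between KO esiCT and WT, between esiHDAC4 and esiCT and between PROTAC #11 and esiCT, 0 of 16 members were called, against 0%, 0% and 0% of all genes. At an unadjusted p under 0.05 there were also 0, 0 and 0 members, against 1.63%, 0.154% and 6.98%, and DESeq2 called 0, 0 and 0 members, against 0%, 0% and 0.291%. The MT-RNR1 response with PROTAC #11 minus that with esiCT alone was -0.75 log2 units (SE 0.67, adjusted p = 0.974). The MT-ND3 response in KO esiCT minus that in WT was 0.22 (SE 0.35, adjusted p = 1.00). The standard errors of these differences ran from 0.29 to 0.70 log2 units over the 15 members in the PROTAC #11 comparison. A difference must clearly exceed its standard error to be called. Differences of this size, and somewhat larger ones, could therefore not be resolved with 3 libraries per group. Without number 3 in every group MT-ND4L was called in the interaction of PROTAC #11 and OXPT (log2 fold change -1.29, adjusted p = 0.0394), against 1.95% of all genes. The call of MT-ND3 in KO esiCT cells is not shown to be particular to them.

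HDAC4 silencing left 0 of 16 members called, both untreated and with OXPT, against 0.00809% and 0% of all genes. At an unadjusted p under 0.05 there were 0 and 0 members, against 3.19% and 3.08%, and DESeq2 called 0 and 0, against 0.324% and 0.0728%. In OXPT-treated cells MT-RNR1 was at 9642, 9224 and 3940.0 CPM with esiHDAC4 and 19356, 17246 and 8349 CPM with esiCT. Each esiHDAC4 library was lower than the esiCT library of its number, while the groups overlapped (log2 fold change -0.98, SE 0.47, adjusted p = 1.00). The median of the 15 members was -0.12 log2 units untreated and -0.20 with OXPT, with 3 and 2 of 15 above 0, beside medians of -0.0023 and 0.0048 over all genes. The esiCT libraries are the controls of these comparisons and also enter the OXPT response of KO esiCT cells and the comparisons with PROTAC #11 and WT.

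PROTAC #11 in untreated cells left 0 of 16 members called, against 0.51% of all genes, and 1 at an unadjusted p under 0.05, against 13.8%. For 8 members (MT-CO1, MT-ATP8, MT-ATP6, MT-CO3, MT-ND3, MT-ND4L, MT-ND4 and MT-CYB) all 3 PROTAC #11 libraries lay above all 3 esiCT libraries, against 17.2% of all genes. These are 8 of the 13 mRNAs and none of the rRNAs. MT-CYB was at 6834, 5635 and 7107 CPM with PROTAC #11 and 4380.5, 3551 and 4768 CPM with esiCT (log2 fold change 0.62, SE 0.29, adjusted p = 0.347). MT-RNR1 was at 11511, 9815 and 4762 CPM with PROTAC #11 and 8075, 6227 and 2568 CPM with esiCT, with overlapping groups (log2 fold change 0.63, SE 0.47, adjusted p = 0.619). The share of counts on that list of RNAs, which mostly lack a poly(A) tail, was 0.212, 0.232 and 0.291% in untreated PROTAC #11 libraries and 0.123, 0.104 and 0.285% in untreated esiCT libraries, and its part in these differences was not tested. Under OXPT, PROTAC #11 left 0 of 16 members called, against 0.121% of all genes, with 0 at an unadjusted p under 0.05, against 10.2%. Without number 3 MT-ND4L was called lower under OXPT (log2 fold change -0.77, adjusted p = 0.0280), against 11.5% of all genes. DESeq2 called 0 members in either state, against 3.31% and 1.02%. The median of the 15 members was 0.27 log2 units untreated and -0.12 with OXPT, beside -0.0034 and -0.014 over all genes.

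Between KO esiCT and WT cells no member passed the test with all libraries, with 0 of 16 called untreated and under OXPT, against 0.291% and 0.138% of all genes. DESeq2 called 0 and 0, against 0.947% and 0.243%, and at an unadjusted p under 0.05 there were 4 and 2 of 16, against 5.74% and 5.4%. In untreated cells MT-ND1, MT-CO1, MT-CO3 and MT-TP were lower in all 3 KO libraries than in all 3 WT libraries, against 3.52% of all genes. MT-ND1 was at 3726, 3762 and 2946 CPM in KO and 6617, 4474 and 4749.6 CPM in WT (log2 fold change -0.60, SE 0.20, adjusted p = 0.479). MT-TP was at 49.7, 53.8 and 70.4 CPM in KO and 121, 92.8 and 95.7 CPM in WT (log2 fold change -0.83, SE 0.29, adjusted p = 0.492). Without number 3 MT-TP was called untreated (log2 fold change -1.05, adjusted p = 0.0240) and MT-CO1 under OXPT (-0.86, adjusted p = 0.0417), both lower in KO, against 0.432% and 0.296% of all genes. MT-RNR1 went the other way, with every KO library above the WT library of its number in both states. With OXPT it was at 19356, 17246 and 8349 CPM in KO and 8677, 4419 and 3001 CPM in WT. These groups overlapped, since KO library 3 lay below WT library 1 (log2 fold change 1.48, SE 0.48, adjusted p = 0.697, adjusted p = 0.0512 with the block). MT-RNR2 was also higher in each untreated KO library than in the WT library of its number. It was at 15842, 16784 and 7204 CPM in KO and 11839, 12975 and 6415 CPM in WT, with overlapping groups. With OXPT its KO library 1 was below its WT partner, at 19284 against 20017 CPM. The esiRNA of the WT libraries is not settled, so that genotype and esiRNA cannot be told apart here, and each genotype is 1 line.

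The tRNA genes were nearly silent in the unstranded column, where all 22 together held 31782 counts over 24 libraries. MT-TP, the tRNA for proline, had 31173 of these, MT-TY, for tyrosine, 266 and MT-TF, for phenylalanine, 122. Mature tRNAs are short, folded and without a poly(A) tail, and such libraries capture few of them. Of the other 19 genes, 15 had 1 to 107 counts and 4 (MT-TQ, MT-TK, MT-TS1 and MT-TD) had 0. In this column a count of 0 allows up to 3 counts for each over the 24 libraries together. MT-TP was at 49.7, 53.8 and 70.4 CPM in untreated KO esiCT libraries and 79.0, 73.9 and 169 CPM with OXPT. The groups did not overlap, and OXPT library 3 was by far the highest (log2 fold change 0.89, SE 0.29, adjusted p = 0.0518, adjusted p = 0.0344 with the block). Without that library the log2 fold change was 0.40 (adjusted p = 0.420), and without OXPT library 1 or 2 MT-TP was called (adjusted p = 0.0308 and 0.0278). In WT it was at 121, 92.8 and 95.7 CPM and 154, 140.1 and 145 CPM, with no overlap (log2 fold change 0.50, SE 0.29, adjusted p = 0.301). Its gene lies on the minus strand beside the control region, and without strand its counts cannot be told apart from RNA of the opposite strand.

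The count files also hold a forward and a reverse strand column, and the tRNAs differed between columns by far more than the mRNAs. Although the labels name a stranded kit, reverse over forward gene totals were 1.00 to 1.02 in the 24 libraries, so that reads fell on both strands alike. MT-TS1, for serine, had 0 unstranded counts but 99748 forward and 87857 reverse counts. MT-TE, for glutamate, had 29 unstranded, 21716 forward and 21440 reverse counts, and MT-TQ, for glutamine, 0, 6765 and 6528. All these genes lie on the minus strand and touch or nearly touch a plus-strand gene. Together the 8 minus-strand tRNAs had 31580 unstranded, 159766 forward and 140459 reverse counts, and the 14 plus-strand tRNAs 202, 2013 and 1854. A read that covers the end of MT-CO1 and part of MT-TS1 is set aside as ambiguous without strand and goes to 1 gene with it. In the 2 strand columns together MT-CO1 had 251531 more counts than unstranded, MT-ND5 342260.0 more and MT-ND6 366819 more. For MT-RNR1 and MT-ND3 the gain was 33.0 and 94.0 counts. The source of the strand-column counts on the tRNA genes was not tested.

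**Figure D5:**
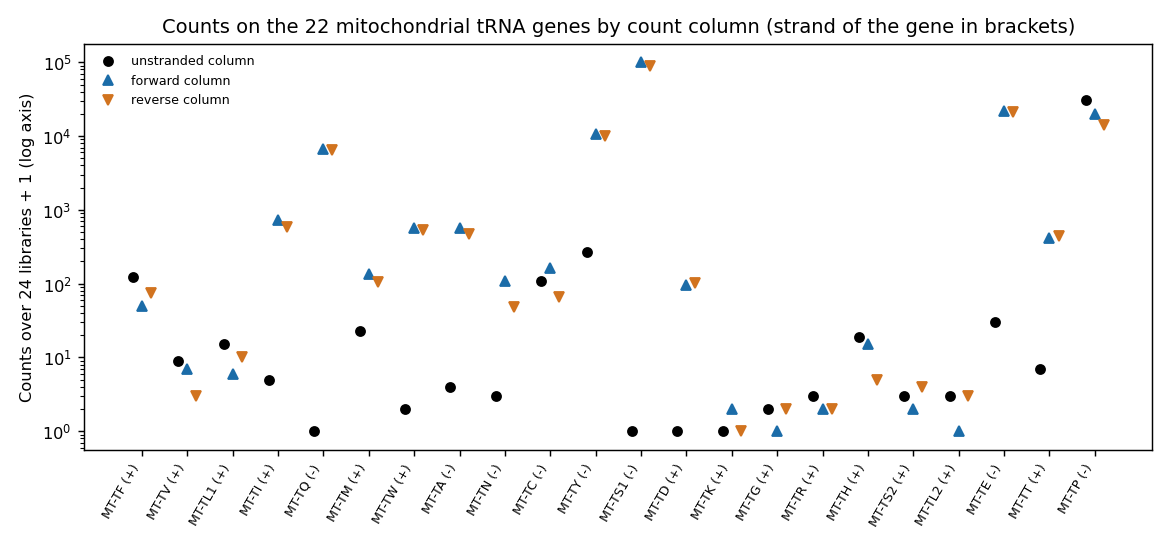
Counts plus 1 (log axis) on each of the 22 tRNA genes, summed over the 24 libraries, in the unstranded, forward and reverse columns, with the strand of the gene in brackets. MT-TS1 had 0 unstranded and 187605 strand-column counts, whereas MT-TP had 31173 and 34096.

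Copies of mitochondrial DNA in the nuclear chromosomes share reads with some members. The files list 404 such pseudogenes, which together held 1.33 to 1.85 counts per 100 mitochondrial counts. MTATP6P1 (hg38, chr1:633696-634376) had the most, 291553 counts over 24 libraries, and its 681 bases match MT-ATP6 at 671 positions (98.5%). Exact copies of 100-base windows were found elsewhere in hg38 for 27.9% of the windows of MT-CO1, 26.1% of MT-ND2, 21.2% of MT-RNR1, 11.9% of MT-ATP6 and 11.0% of MT-ND1. For MT-CO3 and MT-CO2 the shares were 4.67% and 2.39%, and for the other 8 of the 15 major members 0%. A read that lies wholly in such a stretch maps to more than 1 place and is not counted. For windows of 150 bases the shares were 14.5% for MT-CO1, 15.7% for MT-ND2, 10.4% for MT-RNR1 and 1.12% for MT-ND1. They were 0% for MT-ATP6, MT-CO3 and MT-CO2. How far the levels of these 7 genes are understated thus depends on the read length and is uncertain. MT-ND3 has no exact copy of 50 bases or more.

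Nuclear genes that make or use mitochondrial RNA were described from fixed lists. Of 37 nuclear complex I subunits 34 were tested, and under OXPT 2, 1, 2 and 0 were called higher in KO esiCT, KO esiHDAC4, KO #11 and WT, and 0 lower, where 11.3%, 12%, 9.51% and 10.7% of all genes were called in either direction. These shares are also the background of the other lists below. The median log2 fold changes of the complex I subunits were 0.52, 0.36, 0.46 and 0.18, beside 0.0099, 0.018, -0.0024 and -0.059 over all genes. Of 37 nuclear subunits of complexes III, IV and V, all tested, 2, 0, 0 and 0 were called higher and 0 lower, with medians of 0.51, 0.29, 0.41 and 0.23. COX6A1, a nuclear subunit of cytochrome c oxidase, was at 38.4, 33.8 and 41.0 CPM in untreated and 45.7, 66.7 and 236 CPM in OXPT-treated KO esiCT libraries (log2 fold change 1.62, SE 0.46, adjusted p = 0.0254). As for MT-ND3, OXPT library 3 was the highest, and without it the log2 fold change was 0.57 (adjusted p = 0.406). In the same response NDUFB2, of complex I, had a log2 fold change 1.26, SE 0.34, adjusted p = 0.0208, and UQCR10, of complex III, a log2 fold change 1.17, SE 0.37, adjusted p = 0.0442. Without the same library these were at 0.43 and 0.33 (adjusted p = 0.324 and 0.587). The medians of the lists are given with all libraries only, so the part of that library in those of KO esiCT is not known. NDUFS5 was called in KO #11 (log2 fold change 1.11, SE 0.29, adjusted p = 0.0197) while NDUFV3 was called in all 3 KO arms, at log2 fold changes of 0.88, 0.74 and 0.76 in KO esiCT, KO esiHDAC4 and KO #11 (adjusted p = 0.0121, 0.0316 and 0.0310). In WT it was at 0.56 (adjusted p = 0.108). In PROTAC #11 cells, untreated and with OXPT, the nuclear subunits of complex I had medians of -0.37 and -0.33 against esiCT, with 0 called. With esiHDAC4 these medians were -0.15 and -0.35, also with 0 called. The nuclear subunits of complexes III, IV and V had -0.27 and -0.45 with PROTAC #11 and -0.18 and -0.52 with esiHDAC4. In untreated PROTAC #11 cells the sign for complex I was opposite to the median of the 15 mitochondrial members given above.

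Of 11 tested genes of the mitochondrial transcription machinery 0, 0, 1 and 0 were called higher under OXPT in KO esiCT, KO esiHDAC4, KO #11 and WT and 0 lower, beside the shares of all genes given above, 9.51% in KO #11. POLRMT, the polymerase, was the gene called in KO #11, at 123, 114 and 114 CPM untreated and 221, 206 and 186 CPM with OXPT (log2 fold change 0.81, SE 0.19, adjusted p = 0.00864). The untreated PROTAC #11 libraries were also the lowest group for this gene, against 176, 209.9 and 193 CPM in untreated esiCT libraries (log2 fold change -0.72, SE 0.19, adjusted p = 0.0835). TFAM, which packs and activates mitochondrial DNA, had log2 fold changes of -0.25, -0.23, -0.15 and -0.014 in the 4 responses (adjusted p 0.604 to 0.985). TFB2M, which opens the promoter, had 0.015, -0.029, 0.056 and 0.27 (adjusted p 0.515 to 0.978), and TEFM, the elongation factor, -0.59, -0.14, -0.033 and 0.58 (adjusted p 0.231 to 0.965). LRPPRC and SLIRP, which protect mitochondrial mRNAs, had -0.066, -0.10, -0.14 and -0.14 and 0.67, 0.60, 0.35 and 0.37 (adjusted p 0.929 to 0.965 and 0.160 to 0.523).

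Of 37 tested genes for processing, stability and decay of mitochondrial RNA, 1, 1, 4 and 3 were called higher and 0 lower under OXPT, against 11.3%, 12%, 9.51% and 10.7% of all genes, with medians of 0.086, 0.17, 0.21 and 0.054. REXO2, which degrades short RNA fragments, was called in KO esiCT, KO #11 and WT, at log2 fold changes of 0.85, 0.70 and 0.77 (adjusted p = 0.0125, 0.0410 and 0.0236). GTPBP3, which modifies tRNAs, was called in KO #11 and WT, at 0.63 and 0.76 (adjusted p = 0.0175 and 0.00417). MRM1, which methylates the 16S rRNA, was called in KO esiHDAC4 (log2 fold change 1.10, SE 0.28, adjusted p = 0.0146), and TRUB2, a pseudouridine synthase, in KO #11 (log2 fold change 1.08, SE 0.19, adjusted p = 0.000952) and WT (log2 fold change 0.69, adjusted p = 0.0218). Among 13 tested regulators of biogenesis, ESRRA, a nuclear receptor that drives respiratory genes, was called higher in KO esiHDAC4 (log2 fold change 0.95, SE 0.27, adjusted p = 0.0225) and KO #11 (log2 fold change 0.84, SE 0.26, adjusted p = 0.0495). ATF5, a transcription factor of the mitochondrial stress response, was called lower in WT (log2 fold change -1.41, SE 0.43, adjusted p = 0.0405), and without untreated WT library 3 its log2 fold change was -0.25 (adjusted p = 0.544). POLRMT and TRUB2 in KO #11 remained called whichever of the 6 libraries was left out (adjusted p up to 0.0461 and 0.00982), and each other nuclear call named here was lost without at least 1 library. The medians of the 13 regulators were 0.023, -0.15, -0.46 and -0.20 in KO esiCT, KO esiHDAC4, KO #11 and WT. Of 19 genes for replication and upkeep of mitochondrial DNA 0, 1, 0 and 0 were called higher and 0 lower, with medians of -0.0090, 0.11, 0.10 and -0.062. Of 17 translation factors none was called at the edgeR threshold, with medians of -0.11, 0.043, 0.072 and 0.028.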

How the data were processed

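RNA was sequenced as poly(A) RNA, and the submitters' processing notes name Trimmomatic 0.39, STAR 2.7.11a and hg38. The gene annotation behind the counts is not given in the sources used here. Per library, the authors deposited 1 table of raw gene counts, with unstranded, forward and reverse columns, and the unstranded count was used. Symbols came from GENCODE 44 (62686 of 62757 identifiers matched, 62130 with the version). All intervals cover counting and library spread only, and the total gene counts per library set the precision.

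Genes with a mean count of at least 64 in 1 group or more were fitted with edgeR 4.0.16 (quasi-likelihood F test, TMM, 8 group coefficients, R 4.3.3). A gene was called where its p, adjusted by Benjamini-Hochberg across the 12356 genes, was under 0.05 with a fold over 1.5, the thresholds of the study's methods, which used DESeq2 on salmon estimates. SE was computed as the size of the log2 fold change divided by the root of its F. Alternatives were DESeq2 1.42.0, other scaling, filters and count columns, a replicate block, and libraries left out, among them number 3 of every group, chosen after the data were seen. The edgeR step was run on simulated data with independent libraries, in which libraries of the same number shared no deviation. That run checks the code and does not show how the test performs on these data. Libraries of the same number deviated together in 8 of the 10 comparisons between 2 groups (every correlation over 0.1), but not in those of PROTAC #11 against esiCT, and the numbers come from the titles. Levels per length are RPKM of the unstranded counts. Sequences and gene positions were read from hg38.

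The members and lists were chosen with earlier results of these data known. All 37 members are accounted for. The 13 mRNAs and 2 rRNAs and the 3 highest tRNAs are named, other tRNAs were named after their values were seen, 6 nuclear genes of transcription and RNA stability are named whatever their values, and otherwise at most the 3 called list genes with the largest fold per OXPT response. 12 WT libraries whose labels disagree on OXPT were compared with nothing.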

Additional observations from a re-analysis of the deposited data

Results flagged for a closer look

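Counts in the strand columns, which no comparison above uses, appeared on 3 tRNA genes that have 0 unstranded counts in the 24 libraries. MT-TS1 had 187605 counts in the forward and reverse columns together, MT-TQ 13293 and MT-TD 198. The 3 counts that a count of 0 allows hold for the unstranded column and say nothing on the strand columns, which assign reads by another rule. The untreated libraries hold them as well as the OXPT-treated ones, and their source was not tested.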

How the results depend on the processing

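Over 7072 values of the 16 tested members in 13 comparisons under 34 alternatives, 0 called differences reversed, 412 values took the other sign without a call, 6 calls were lost and 32 were gained. In the OXPT response of KO esiCT cells 1 member was called, and 2 were with reverse-strand counts, RLE scaling, nuclear genes for scaling, no count filter or number 3 left out of every group, 3 with DESeq2 or the replicate block, and 0 with only the groups compared. In KO esiHDAC4, against 0 called, 1 was without a count filter and with the block, and 2 without number 3. In KO #11 1 was called with only the groups compared and with the block. In WT 1 was called without a count filter, with the block and without number 3. Without number 3 there was also 1 call for PROTAC #11 under OXPT, for KO against WT untreated and under OXPT, and for the interaction of PROTAC #11 and OXPT. The 2 comparisons of KO and WT had 1 call each without a count filter. The replicate block changed no other call. In the 2 comparisons of PROTAC #11 with esiCT, where the numbers do not pair the libraries, it gave 0 calls in both. With 1 library left out, the calls ranged from 0 to 3 in KO esiCT and from 0 to 1 in WT, and were 0 in the others.

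The mean mitochondrial share was lower in the strand columns and over all reads. For OXPT-treated PROTAC #11 it was 9.74% reverse, 9.55% forward and 7.67% of all reads, and untreated 9.07%, 8.87% and 7.18%. For untreated esiHDAC4 it was 6.92%, 6.84% and 5.52%, and with OXPT 6.39% of all reads. For untreated esiCT it was 7.35% forward and 6.003% of all reads, and with OXPT 7.16% of all reads. With 1 library left out, the share ran from 7.98 to 8.80% and 9.95 to 11.8% in esiCT, 7.44 to 7.90% and 8.14 to 10.5% in esiHDAC4, 9.83 to 10.2% and 10.3 to 11.3% in PROTAC #11, and 7.61 to 10.3% and 8.64 to 12.9% in WT, untreated and with OXPT. Among the tested members depth was no limit, but the 3 libraries per group were, and the tRNAs other than MT-TP had too few counts for a test. The causes of the changes in calls were not tested.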

Other observations

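The labels of 12 further WT libraries contradict each other on OXPT, so that they belong to no group. Their mitochondrial share of gene counts ran from 6.70 to 12.9%, with a median of 8.14%. The 2 rRNAs made up 11.6 to 23.8% of their mitochondrial counts (median 16.9%), and the tRNAs 0.0844 to 0.169% (median 0.121%). In the 24 labelled libraries the rRNAs made up 12.6 to 34.1% (median 22.7%). The total gene counts of the 12 libraries were 11103845 to 19755829 and their unmapped reads 7.82 to 16.7%.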
